A study of Caenorhabditis elegans with 2 samples.

Results

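The nuclear genome of the nematode Caenorhabditis elegans holds 612 annotated tRNA genes, and 276 of them lie on the X chromosome. These 276 were taken by rule, as all genes of biotype tRNA on X in the Ensembl annotation of assembly WBcel235 (ce11), with no use of the binding data. They were examined in a chromatin immunoprecipitation experiment on DAF-19, the RFX-family transcription factor of the worm that is known for driving genes of sensory cilia. Whole L4 larvae, 48 hours old and synchronised as starved L1 animals after bleaching, were precipitated with an anti-GFP antibody. All animals were of strain OP794, which carries the integrated transgene wgIs794 with daf-19 fused to the tags TY1, EGFP and 3xFLAG and with unc-119(+), in an unc-119(tm4063) background. The series holds a single group, 2 biological replicates, and nothing to compare it with. The labels do not say how far the cultures of the replicates were separate. The control experiment that the labels name was not analysed here, so how much of the signal at tRNA genes is also present without the tagged protein cannot be told from these data.

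tRNA genes are transcribed by RNA polymerase III from a promoter that lies inside the gene. The factor TFIIIC binds an A box near the start of the gene and a B box in the part that encodes the T arm, and it brings TFIIIB, which sits just upstream and recruits the polymerase. A short run of T on the coding strand after the gene ends transcription. The genome of C. elegans holds many copies of most tRNA genes, often with identical sequence, and some lie inside introns of other genes.

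A peak summit was assigned to a tRNA gene when it lay in the gene or within 200 bp of it. The authors' series-wide ranked list gave the peaks, with their own signal value and an IDR value, the −log10 of the irreproducible discovery rate, by which peaks that recur score high. A gene was called when a summit in its reach had an IDR value of 2 or more, that is a rate of 0.01 or less. The signal's scaling is not stated, and it is used here to describe and rank peaks within a list.

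The sequences below show what the called and uncalled genes look like. All are RefSeq sequence of WBcel235 for genes on X, read 5′ to 3′ on the strand of the gene. Capitals mark matches to the letters searched for the B box (GTTCNANNC) and for the A box (TNGCNNAG). R04D3.t2, a valine tRNA gene, and W02H3.t1, a leucine tRNA gene, had some of the highest signals. C04E7.t1, another leucine tRNA gene, had no ranked summit in reach. F09B9.t1 stands for an arginine sequence that is found on X alone, F28H6.t2 for 6 clustered histidine genes of 1 sequence, and C16B8.t1 for the most numerous sequence on X, a proline tRNA. C16B8.t2 is a proline gene without the B box letters, and its match to the A box letters lies in the middle of the gene, at base 27, away from the usual place of an A box.
R04D3.t2: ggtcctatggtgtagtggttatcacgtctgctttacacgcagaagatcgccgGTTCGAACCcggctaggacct
W02H3.t1: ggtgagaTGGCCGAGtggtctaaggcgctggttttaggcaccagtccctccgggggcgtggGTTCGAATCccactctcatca
C04E7.t1: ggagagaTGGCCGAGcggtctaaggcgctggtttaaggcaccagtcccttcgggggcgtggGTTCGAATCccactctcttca
F09B9.t1: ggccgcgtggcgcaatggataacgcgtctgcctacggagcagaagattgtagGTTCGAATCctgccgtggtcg
F28H6.t2: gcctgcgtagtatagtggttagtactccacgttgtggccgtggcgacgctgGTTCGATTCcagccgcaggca
C16B8.t1: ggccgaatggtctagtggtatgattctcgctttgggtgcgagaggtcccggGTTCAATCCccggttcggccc
C16B8.t2: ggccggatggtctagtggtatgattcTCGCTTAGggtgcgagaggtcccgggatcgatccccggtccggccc

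The B box letters stood on the gene's own strand in 268 of the 276 genes (97.1%), against 1.34% of 246096 windows of 72 bp along X on 1 strand and 2.64% on either strand. On the opposite strand 6 of the genes held them. The A box letters were found in 113 genes (40.9%), against 3.31% of windows on 1 strand and 6.35% on either, and in none of the genes on the opposite strand. A run TTTT began within 20 bp after 273 genes (98.9%), against 24.5% of windows of that length on 1 strand. Nearly all annotated genes thus held the B box letters and a T run, while most lacked the strict A box string and 107 held both boxes. Of the 113 A box matches, 109 began at base 8 of the gene, 2 at base 9 and 2 at base 27. The 8 genes without B box letters included C16B8.t2 and C16B8.t3, and 2 of the 8 were called.

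A called summit lay at 124 of the 276 X tRNA genes (44.9%; 95% Wilson interval 39.2 to 50.8, which covers counting error only). The background was far lower. Of the other 46278 nuclear genes, 1.14% had a called summit within reach of the first 72 bases, and 2.24% when the whole gene was used. The share was 1.9% for the 5746 other genes on X and 0.841% for protein-coding genes. Of the 72 bp windows tiled along X, 0.554% had a called summit in reach. In replicate 1 alone 76 X tRNA genes (27.5%) were called, against 0.579% of the other nuclear genes. In replicate 2 alone 78 (28.3%) were called, against 0.607%. Neighbouring genes and genes of identical sequence are not independent, so the intervals are too narrow as errors of a condition.

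Of all 216 called summits on X, 119 (55.1%) lay at a tRNA gene. The share was 67 of 102 (65.7%) in replicate 1 and 74 of 104 (71.2%) in replicate 2. Among the 100 strongest ranked peaks on X, 68 lay at X tRNA genes, and among the 100 strongest of the genome, 23 did so and 5 lay at tRNA genes of other chromosomes. The X tRNA genes therefore made up a majority of the called X summits in each of the 3 lists.

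The strongest series-wide signal was a median of 156 at the 124 called genes, from 97.0 to 362. It was a median of 67.1, with a highest value of 117, at the 93 genes that had a ranked but no called summit. The median of all 25866 ranked peaks on X was 34.8. At the called genes the median was 81.0 in replicate 1, where all ranked X peaks had a median of 20.6, and 74.9 in replicate 2, where the latter was 18.4. Called and uncalled genes overlapped in signal between 97.0 and 117. The remaining 59 genes had no ranked summit within 200 bp. A ranked summit was thus in reach of 217 of the 276 genes (78.6%), against 55.9% of the 72 bp windows along X.

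The strongest summit lay between M02F4.t1, a glycine tRNA gene, and its divergent neighbour M02F4.t2, a glutamate tRNA gene. Its signal was 362 series-wide, 182 in replicate 1 and 181 in replicate 2. R04D3.t2 followed with 338 series-wide, 185 in replicate 1 and 143 in replicate 2. It was followed by F15G9.t1, an alanine tRNA gene, with 323, 180 and 147 in the same order. Each of these 3 summits was called in each replicate, and in the series-wide list none of them had its highest point inside the gene. At R04D3.t2 it lay 1 bp after the end series-wide and inside the gene in replicate 1.

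The summit at the glutamate gene C28G1.t1, the only X tRNA gene that overlaps an exon of another gene (C28G1.2), had a series-wide signal of 308. The next 8 genes by signal ran from F41D9.t3, an asparagine gene, at 275 to F09B9.t1, an arginine gene, at 244. Between them lay C53C7.t1 (serine, 266), C42D8.t1 (isoleucine, 264), W03G11.t1 (lysine, 260), rte-1 (glutamate, 258), W02H3.t1 (leucine, 254) and T25B6.t2 (threonine, 252). The 12 strongest genes, counted with no more than 1 gene to a summit, thus belonged to 11 isotypes, and glutamate alone appeared more than once. All 12 were called in both replicates, with replicate 1 signals of 104 to 185 and replicate 2 signals of 123 to 181.

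At the threshold, the 4 called genes of lowest signal were F41D9.t1 (97.0), R04E5.t6 (103), F54F7.t2 (106) and K08B5.t2 (106). The 4 uncalled genes of highest signal were F47E1.t2 (117), C26G2.t1 (114), T14G8.t1 (114) and C06G1.t1 (112). None of the former was called in either replicate, while F47E1.t2 and C06G1.t1 were called in replicate 1. F47E1.t2, a glutamine gene, had 77.6 in replicate 1 and 41.4 in replicate 2. C06G1.t1, a histidine gene, had 84.1 and 41.0. Both had an IDR value just under the threshold in the series-wide list, 1.97 and 1.96. At the limit of 200 bp, F28H6.t4 was called from a summit 190 bp away and K08H2.t1 had an uncalled summit at 198 bp, while R04E5.t1 and B0344.t1 lay 218 bp from the nearest ranked summit and so had none.

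Most genes called in either replicate were called in the other as well. Of the 276 genes, 60 were called in both replicates, 16 in replicate 1 only and 18 in replicate 2 only. The shared 60 are 78.9% of those called in replicate 1 and 76.9% of those called in replicate 2. All 60 were called series-wide. Another 39 genes were called series-wide and in neither replicate, and 9 were called in a replicate but not series-wide. Across the 203 genes with a ranked summit in both, Spearman's rho was 0.769 and Pearson's r of the log2 signal 0.688, as a description over genes that share libraries, summits and sequences. Replicate 1 signal divided by replicate 2 signal had a median of 1.06, with quartiles of 0.844 and 1.36, and the summits of a gene lay a median of 37 bp apart.

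**Figure D1:**
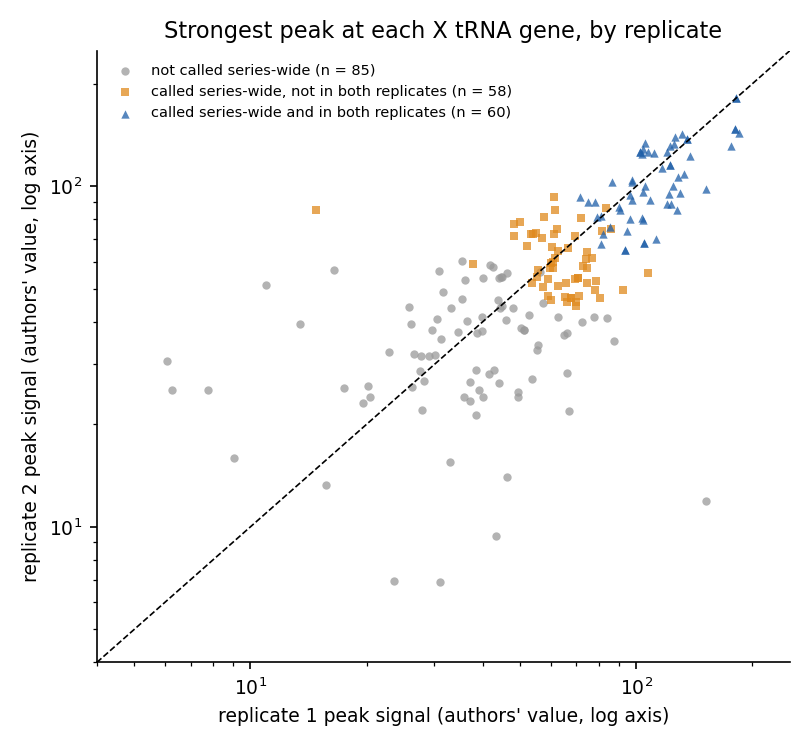
Strongest ranked peak signal at each X tRNA gene in replicate 1 (x axis) and replicate 2 (y axis), the authors' values on log axes, for the 203 genes ranked in both. The dashed line marks equal values, and colour and shape mark the call. The 60 genes called series-wide and in both replicates fill the upper right, and a few uncalled genes lie far from the line.

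Among the genes called in 1 replicate only, the 3 of highest series-wide signal were C52G5.t1, F12D9.t1 and C14F11.t1. C52G5.t1, a valine gene, had 172 series-wide, 83.5 in replicate 1 and 86.4 in replicate 2, and was called in replicate 2. F12D9.t1, a cysteine gene, had 168, 86.2 and 74.9, and was likewise called in replicate 2. C14F11.t1, an arginine gene, had 161, 81.4 and 74.0, and was called in replicate 1. The signals of these 3 genes differed little between replicates. F46G11.t1, chosen after its values were seen, differed most plainly. This proline gene shared a summit of 152 with its neighbour F46G11.t2 in replicate 1, while its strongest summit in replicate 2 was 11.9.

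Within the reach of 200 bp that the assignment allows, most called summits lay on the gene or within 50 bp of it. The 119 distinct summits had a median position 20 bp after the first base of the nearest tRNA gene, along its strand, with quartiles of −7 and 64.5 bp. Inside the gene lay 55 summits (46.2%), upstream 40 and downstream 24. Within 50 bp of the gene lay 106 (89.1%). The median was 28 bp in replicate 1 and 25 bp in replicate 2, where 63 of 67 and 64 of 74 summits lay within 50 bp. At genes with no other tRNA gene within 1000 bp, 79 summits had a median position of 12 bp. These positions are coarse, because 118 of the 119 peaks had the fixed width of 380 bp and chromatin was sheared to 200 to 800 bp, per the labels. Of the 119 summits, 8 had a signal under 40, and all 8 peaks overlapped a stronger called peak. Without them the share of called genes remained 44.9%, while the positions given here include them.

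**Figure D2:**
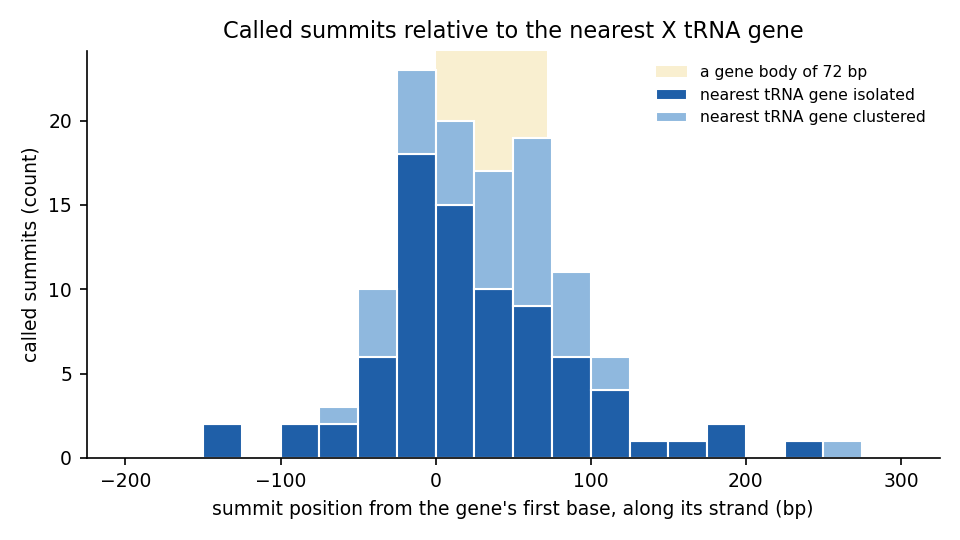
Number of called series-wide summits (y axis) by position from the first base of the nearest X tRNA gene along its strand (x axis, bins of 25 bp), stacked by whether that gene had another tRNA gene within 1000 bp. The shaded band marks a gene body of 72 bp. Most of the 119 summits lie from 50 bp upstream to 100 bp after the start, and 55 lie inside the gene.

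In clusters a summit could lie between genes or serve several. Of the 276 genes, 135 had another tRNA gene within 1000 bp, in 54 clusters of 2 to 6 genes. Of the 40 summits whose nearest gene was clustered, 21 (52.5%) lay inside that gene, against 34 of 79 (43.0%) at isolated genes. In the replicates alone the order was turned around. The shares inside were 35.0% at clustered and 53.2% at isolated genes in replicate 1, and 47.6% and 49.1% in replicate 2. Of the 40 series-wide summits, 14 reached 2 or more genes. Of the 81 pairs of neighbours up to 1000 bp apart, 25 were divergent, 17 convergent and 39 in tandem. Either or both genes were called in 17 of the 25 divergent pairs (68.0%), 11 of the 17 convergent pairs (64.7%) and 13 of the 39 tandem pairs (33.3%). A pair could thus count although its called summit was out of reach of the other gene. The median gap between the genes was 161 bp in divergent, 178 bp in convergent and 409 bp in tandem pairs, so orientation and distance cannot be told apart here. Counted by pair, 8 of the 19 summits at divergent pairs lay between the genes, 3 of 12 at convergent pairs and 3 of 16 at tandem pairs.

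The alanine pair F15G9.t1 and F15G9.t2 shows a summit between genes. Both genes lie on the plus strand in an intron of him-4, which encodes the extracellular matrix protein hemicentin and is transcribed from the same strand. The sequence runs over X:9743569-9743838 of WBcel235, plus strand, with both gene bodies in capitals.
F15G9.t1 and F15G9.t2: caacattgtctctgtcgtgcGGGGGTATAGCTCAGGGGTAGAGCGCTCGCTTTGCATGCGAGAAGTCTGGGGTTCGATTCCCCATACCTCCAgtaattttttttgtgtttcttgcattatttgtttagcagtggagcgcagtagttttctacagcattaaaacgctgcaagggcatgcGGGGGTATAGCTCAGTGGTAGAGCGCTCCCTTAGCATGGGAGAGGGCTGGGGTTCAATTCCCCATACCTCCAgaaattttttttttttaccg
The summit was base 130 of this stretch, in the 86 bp between the genes, 38 bp after the end of the first and 49 bp before the start of the second. A run of T follows each gene. The genes are the same at 65 of 72 bases. Counted from the 5′ end of F15G9.t1, with its base first, the 7 differences are G16T, G29C, T33A, C39G, A44G, T46G and G56A. F15G9.t1 has 8 copies of its sequence in the nuclear genome and F15G9.t2 has 15.

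The share of genes called was lower in clusters than outside them. It was 51 of 135 (37.8%; 30.0 to 46.2) for clustered genes and 73 of 141 (51.8%; 43.6 to 59.9) for isolated ones. The replicates alone gave 21.5% against 33.3% and 22.2% against 34.0%. By size, 39 of 78 genes in pairs were called, 4 of 27 in clusters of 3, 1 of 8 in clusters of 4, 3 of 10 in clusters of 5 and 4 of 12 in clusters of 6. Genes in pairs were thus near isolated genes in the series-wide list, but lower in the replicates, with 23.1% against 33.3% in replicate 1 and 28.2% against 34.0% in replicate 2. The direction depended on the unit. With each cluster counted once, as called when any of its genes was, 34 of 54 clusters (63.0%) were called against 51.8% of isolated genes. This rule favours clusters, because a unit of several genes has more ways to be called than a single gene. With a reach of 500 bp the difference between clustered and isolated genes shrank from −14.0 to −1.40 percentage points.

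The largest clusters differed from each other. The cluster F22F1.t2 to F22F1.t7 holds 6 genes of 4 isotypes over 2263 bp, and none was called. There F22F1.t3, an aspartate gene, had 77.8 series-wide, 36.5 in replicate 1 and 40.2 in replicate 2, and F22F1.t4 and F22F1.t5 shared a summit of 67.9. F22F1.t6, a methionine gene, had 64.2, F22F1.t7, an isoleucine gene, 26.3, and F22F1.t2, a serine gene, no ranked summit in any of the 3 lists.

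The cluster F28H6.t2 to F28H6.t5 holds 6 histidine genes of identical sequence over 1966 bp, and 4 were called. The genes stand as 3 pairs that point toward each other. The first pair, F28H6.t2 and F28H6.t7, had a signal of 159 series-wide, 93.3 in replicate 1 and 65.1 in replicate 2. The series-wide summit of 159 lay inside F28H6.t2 and 198 bp from F28H6.t7, which held a called summit of 23.5. The last pair, F28H6.t4 and F28H6.t5, had 147 series-wide and 92.2 in replicate 1, and in replicate 2 a summit of 49.5 at F28H6.t5 alone. The series-wide summit of 147 lay inside F28H6.t5 and 190 bp from F28H6.t4. The middle pair, F28H6.t3 and F28H6.t6, had no ranked summit in reach in any of the 3 lists. So genes with the same 72 bases, less than 2000 bp apart, differed between a called summit and no ranked summit. How reads from such copies were mapped is not stated.

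The third cluster, K01A12.t1 to K01A12.t3, holds 3 cysteine and 2 arginine genes in an intron of K01A12.3. K01A12.t4, a cysteine gene, had 156 series-wide, 74.5 in replicate 1 and 64.0 in replicate 2, and was the only gene called series-wide. K01A12.t2 and K01A12.t3 shared a summit of 37.0, and K01A12.t1 and K01A12.t5 had none in reach in the series-wide list. A further cluster of 5 genes, all glutamine, in an intron of ajm-1 had 2 called genes and a highest signal of 164. ajm-1 encodes a protein of epithelial junctions.

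Host introns held 95 of the X tRNA genes, in 67 host genes, and 180 were intergenic. Called were 45 of 95 in host introns (47.4%; 37.6 to 57.3) and 78 of 180 intergenic genes (43.3%; 36.3 to 50.6), a difference within counting error. By strand relative to the host, 23 of 45 genes on the opposite strand (51.1%) and 22 of 50 on the same strand (44.0%) were called, again within counting error. The replicates alone gave larger differences in the same direction, 18 of 45 against 12 of 50 in replicate 1 and 16 of 45 against 13 of 50 in replicate 2, also with overlapping intervals. Besides F15G9.t1, the called intronic genes of highest signal were F41D9.t3 in sulp-3, which encodes an anion transporter, with 275 series-wide, 132 in replicate 1 and 143 in replicate 2, and ZK563.t1, a threonine gene in ZK563.2, with 241, 129 and 106. The next was F52H2.t1, an aspartate gene in the amino acid transporter gene aat-3, with 237, 107 and 126. By chromosome strand the shares were 46.3% of 136 plus-strand and 43.6% of 140 minus-strand genes, and that small difference turned around with a reach of 50 bp (−1.05 percentage points) and in replicate 1 alone (−0.65). Of the 33 genes within 500 bp of the start of a protein-coding gene, 16 (48.5%) were called, near the 44.9% of all X tRNA genes.

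The isotypes differed. Alanine genes were called most often, 11 of 13 (84.6%; 57.8 to 95.7), with a median strongest signal of 161. Proline genes were called least often, 2 of 20 (95% Wilson interval 2.79 to 30.1%). Glutamate gave 13 of 23 genes, glycine 12 of 20, arginine 11 of 27, leucine 4 of 17, isoleucine 3 of 13, valine 8 of 14, histidine 6 of 9 and methionine 2 of 8. The alanine and proline extremes were picked after their values were seen, and they hold for the series-wide list. In each replicate 8 of 13 alanine genes were called, but in replicate 1 histidine was higher, with 7 of 9. Of the 20 proline genes 2 were called in replicate 1 and 4 in replicate 2, while none of the 8 methionine genes was called in either replicate. Lysine, with 3 of 18, was also below proline in replicate 2. On chromosomes I to V alanine also had a high share, 12 of 21 (57.1%), and proline a low one, 2 of 22 (9.09%). None of the 3 X genes that RefSeq annotates as tRNA without a product was called.

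**Figure D3:**
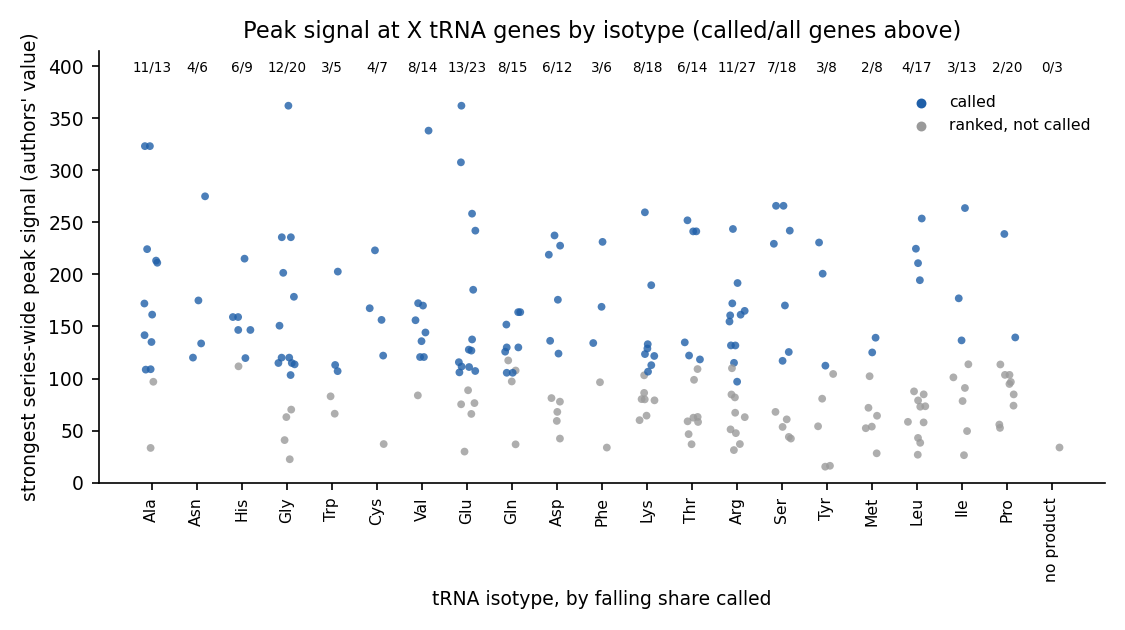
Strongest series-wide peak signal at each X tRNA gene (y axis, the authors' value) by isotype (x axis, from the highest to the lowest share called), with called genes in blue, ranked but uncalled genes in grey and called over all genes printed above. Genes without a ranked summit are counted in the totals but not drawn. Alanine stands at 11 of 13 and proline at 2 of 20.

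Of the 20 proline genes, 9 had no ranked summit in reach, and 7 of those lay between 14 and 16 Mb. The nearest ranked summits of these 9 were 6887 to 23142 bp away. The 2 called proline genes were F46G11.t2, with 239 series-wide, 152 in replicate 1 and 98.5 in replicate 2, and ZK899.t1, with 139, 57.5 and 81.4. Both have the same sequence as C16B8.t1, printed above, which had 94.8 and was not called. T14G8.t1, which differs from C16B8.t1 by G15T alone, had 114 and was not called. C16B8.t2 and C16B8.t3 share A6G, T33A, T53A and A56G relative to C16B8.t1, the last 2 within its B box letters, and shared an uncalled summit of 104.

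Identical genes varied widely. The 4 sequences with the most genes on X gave ranges of several-fold. The proline sequence, with 13 genes on X, ran from no ranked summit at 6 genes to 239. The glutamate sequence of 12 genes, which includes rte-1 and M02F4.t2, had 5 called and ranked signals of 66.0 to 362. The glycine sequence of 11 genes, which includes M02F4.t1 and F56C3.t1, had 8 called and ranked signals of 22.4 to 362. The 362 of both sequences is the same summit, between M02F4.t1 and M02F4.t2. The next highest signals were 258 at rte-1 for glutamate and 236 at T10B10.t2 and T10B10.t1 for glycine. The isoleucine sequence of 10 genes had 1 called, C42D8.t1 at 264, and the other ranked genes stood at 26.3 to 114. Reads within identical genes can map to several places, and how the submitters treated such reads is not given in the sources used here.

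**Figure D4:**
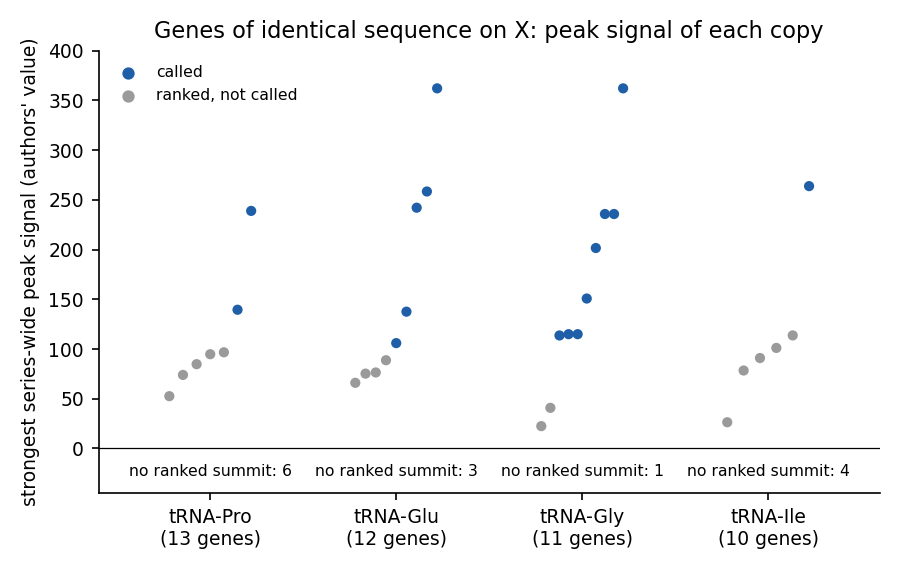
Strongest series-wide peak signal of each gene (y axis, the authors' value) for the 4 tRNA sequences with the most identical genes on X (x axis), with called genes in blue and ranked but uncalled genes in grey, and the number without a ranked summit written below. Genes of 1 sequence run from no ranked summit to 239 in proline and to 362 in glycine. The 362 in glutamate and in glycine is the same summit.

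Genes with an identical copy elsewhere in the nuclear genome were not called less often than the rest. Of the 219 repeated genes 104 (47.5%; 41.0 to 54.1) were called, and of the 57 single-copy genes 20 (35.1%; 24.0 to 48.1), intervals that overlap. In replicate 1 the shares were 30.6% (24.9 to 37.0) and 15.8% (8.54 to 27.4), which also overlap. In replicate 2 they were 32.4% (26.6 to 38.9) and 12.3% (6.08 to 23.2), which do not. The leucine genes W02H3.t1 and C04E7.t1 are the same at 77 of 82 bases. W02H3.t1 had 254 series-wide, 120 in replicate 1 and 126 in replicate 2, while the nearest ranked summit to C04E7.t1 was 6139 bp away.

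Genes with and without both boxes differed little. Of genes with both boxes 41.1% were called, against 47.3% of the others, a difference of −6.22 percentage points that moved to −0.36 in replicate 2 alone and to 0.82 in replicate 1 alone. With the B box letters 122 of 268 genes (45.5%; 39.7 to 51.5) were called and without them 2 of 8 (95% Wilson interval 7.15 to 59.1%). In each replicate none of those 8 was called, against 28.4% and 29.1% of the genes with the letters, and a count of 0 in 8 has an upper Wilson bound of 32.4%. None of the 3 genes without a T run was called.

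Along X the shares rose and fell with position. In bins of 2 Mb, 3 of 17 genes (17.6%) were called at 0 to 2 Mb, 17 of 23 (73.9%) at 10 to 12 Mb, 11 of 34 (32.4%) at 14 to 16 Mb and 10 of 34 (29.4%) at 16 to 18 Mb. The densest bin, 8 to 10 Mb, held 71 genes, of which 34 (47.9%) were called. The 3 bins of lowest called share were also those with the fewest ranked peaks of any kind. A ranked summit was in reach of 36.5% of the 72 bp windows at 0 to 2 Mb, 39.3% at 14 to 16 Mb and 41.0% at 16 to 18 Mb, against 60.4 to 67.5% in the other 6 bins. Among those 6 the called share ran from 42.2% to 73.9% and did not follow the density. At 4 to 6 Mb 63.8% of windows had a ranked summit and 44.4% of genes were called, while at 2 to 4 Mb the values were 60.4% and 62.5%. At 14 to 16 Mb 21 of the 34 genes lay more than 500 bp from any ranked summit. Of the 13 genes there with a ranked summit in reach, 11 (84.6%) were called, the highest such share of any bin. That share was 42.9% at 0 to 2 Mb and 45.5% at 16 to 18 Mb. The part of the density of ranked peaks in the called shares was not tested.

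Of the 59 X tRNA genes without a ranked summit in the series-wide list, 46 also had none in either replicate. The distance to the nearest ranked summit was a median of 2960 bp and ran from 218 to 23142 bp. More than 500 bp lay between the gene and that summit for 43 genes, 15.6% of all 276, against 22.7% of windows along X. The first 4 such genes along the chromosome were C04E7.t1, F49E7.t1, F56C3.t1 and B0344.t3. F49E7.t1, an arginine gene, and B0344.t3, an isoleucine gene in an intron of wrt-9, lay 347 and 348 bp from a ranked summit. F56C3.t1, a glycine gene, lay 9908 bp away, although its sequence is that of M02F4.t1, the gene with the strongest summit.

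tRNA genes on X were called more often than those on the other chromosomes. On chromosomes I to V, 99 of 336 (29.5%; 24.8 to 34.5) were called, an interval that does not overlap that of X, and the shares by chromosome ran from 23.1% on V to 34.4% on III. The difference was 15.5 percentage points. Other genes on X also had a higher called share, 1.9% against 1.14% of other nuclear genes on all chromosomes, X included. Summits at tRNA genes were not removed from that count, so it cannot say whether X was higher away from tRNA genes. In replicate 1 alone 16.1% of the genes on chromosomes I to V were called, and in replicate 2 alone 20.2%, leaving differences of 11.5 and 8.02 points. The intervals were 22.6 to 33.1% on X and 12.5 to 20.4% elsewhere in replicate 1, and 23.3 to 33.8% and 16.3 to 24.9% in replicate 2, where they overlap. With an IDR value of 3 or more the difference was 7.60 points. Among genes with a ranked summit in reach, 57.1% were called on X and 46.7% elsewhere.

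The difference stood at isolated genes. There 51.8% were called on X and 53 of 235 (22.6%; 17.7 to 28.3) elsewhere, and the replicates alone gave 47 of 141 on X against 32 of 235 elsewhere and 48 of 141 against 33 of 235. At clustered genes the order was turned around, with 37.8% on X and 46 of 101 (45.5%; 36.2 to 55.2) elsewhere, and these intervals overlap. The clustered shares were 21.5% against 21.8% in replicate 1 and 22.2% against 34.7% in replicate 2. Counted as clusters, 34 of 54 (63.0%) were called on X and 26 of 46 (56.5%) elsewhere.

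**Figure D5:**
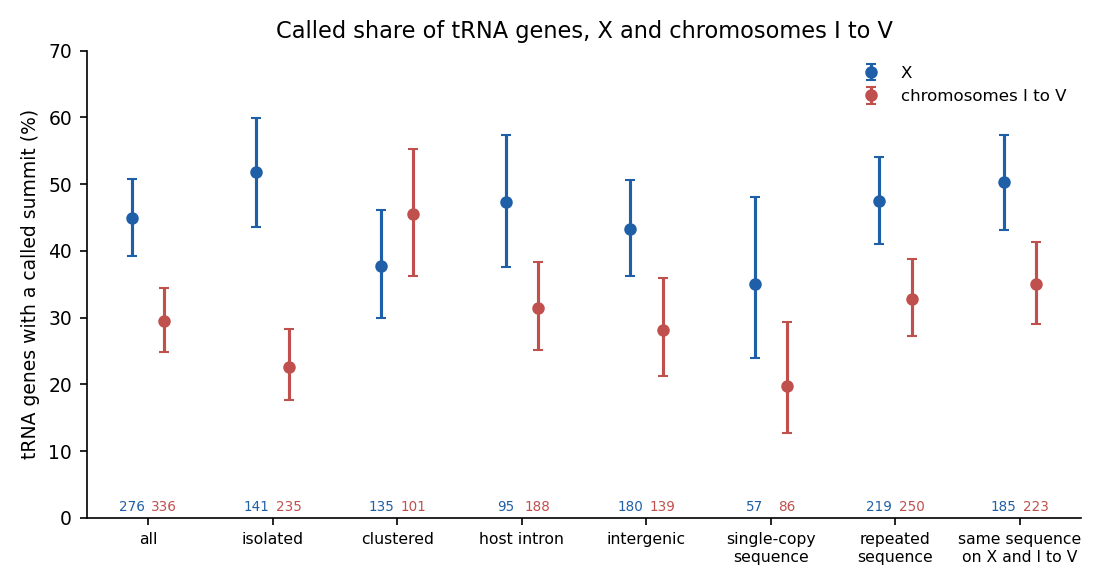
Share of tRNA genes with a called series-wide summit (y axis, percent) on X and on chromosomes I to V for all genes and for the kinds of gene on the x axis, with 95% Wilson intervals as bars and the number of genes printed at the foot. X is the higher at isolated genes (51.8% against 22.6%) and the lower at clustered genes (37.8% against 45.5%).

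The difference held among genes of the same sequence. Of the 276 X genes, 185 have 1 of 43 sequences that are also present on another chromosome. Of these 185 genes 93 (50.3%; 43.1 to 57.4) were called, and of their 223 identical copies on chromosomes I to V 78 (35.0%; 29.0 to 41.4). The replicates alone gave 31.4% against 19.7% and 33.5% against 24.7%. For 25 of the 43 sequences the share was higher on X, for 10 it was lower and for 8 equal. By isotype the share was higher on X for 18 of 20 isotypes. The exceptions were lysine, with 8 of 18 on X and 14 of 28 elsewhere, and methionine, with 2 of 8 and 5 of 12. These shares rest on peaks alone, and depth and read mapping by chromosome cannot be examined in the deposited files.

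Genes for the RNA polymerase III machinery were looked up at their own starts. Of 21 symbols listed for polymerase subunits, TFIIIB, TFIIIC and related factors, 19 were found in the annotation. A called summit lay at 1 of the 19, rpac-19, which encodes a subunit shared by RNA polymerases I and III, with 122 series-wide, 65.6 in replicate 1 and 65.9 in replicate 2. It was also the only one called in either replicate. Of protein-coding genes 0.841% were called, there within reach of the first 72 bases of the gene rather than of its transcript starts. A count of 1 of 19 is too few to say whether these genes differ from others. Of the 19 genes, 11 had a ranked summit, with a median signal of 39.8.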

How the data were processed

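Chromatin immunoprecipitation peaks of tagged DAF-19 were taken from 2 biological replicates of 1 group. The authors deposited ranked and thresholded peak lists on ce11, for each replicate and for the series. Neither labels nor file headers say which aligner and peak caller were run, how reads were filtered or how the signal was scaled. The signal of each peak is the authors' deposited value, and the −log10 of the IDR, capped at 5, is theirs too. Each thresholded list was checked to equal the part of its ranked list at 2 or above. The series-wide lists hold 117986 ranked and 996 thresholded peaks, and 408 and 394 were thresholded in replicates 1 and 2. No file holds read counts, so depth is unknown.

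Genes came from Ensembl release 115. RefSeq matched all 276 X tRNA genes by WormBase ID with the same coordinates and gave names, isotypes and sequence. Summits within 200 bp were assigned, and for each gene the strongest was kept. Clusters join genes up to 1000 bp apart. Other genes were given the first 72 bases as their window. Shares carry 95% Wilson intervals, and no p-value was computed. Genes were named by rule. These were the 12 strongest, the genes of the 3 largest clusters (2 clusters tied at 5 genes), the 4 on each side of the threshold, the first 4 without a summit, the 4 strongest in host introns, the 4 most numerous sequences (a tie at 10 genes was settled by name) and the 3 strongest called in 1 replicate. Members, lists and several alternatives were chosen with earlier results of these data known. On simulated data 40 of 40 summits planted at isolated X tRNA genes were assigned to the right genes. Assignment in clusters was not tested that way. Tools were Python 3.11.15, scipy 1.17.1, pandas 2.3.3, matplotlib 3.10.9 and numpy 2.4.6.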

Additional observations from a re-analysis of the deposited data

How the results depend on the processing

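No paired analysis was possible because the series has 1 group. Of the 84 values recomputed under an alternative, 37 moved by less than the spread between replicates, 40 moved by more and 7 changed sign. That spread rests on 2 replicates and is small for some results, so a small move can exceed it. The share of X tRNA genes called, 44.9%, was 38.8% with a reach of 50 bp, 51.1% with 500 bp, 42.4% with the other series-wide list, 19.2% with an IDR value of at least 3, 40.6% when a summit counted for its nearest gene only, and 27.5 to 28.3% in 1 replicate alone. The X minus autosomal difference of 15.5 points was 20.1 with a reach of 500 bp, 7.60 with an IDR value of at least 3, 26.8 with clusters as units, 8.02 to 11.5 in 1 replicate alone and, under alternatives added after seeing the data, 29.2 for isolated genes, −7.77 for clustered genes and 10.4 for genes with a ranked summit. It was 15.3 for single-copy sequences and 15.3 for sequences present on X and another chromosome, the latter added as well.

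The clustered minus isolated difference of −14.0 points was −19.3 with a reach of 50 bp, −1.40 with 500 bp, −17.7 with the other list, −11.5 with an IDR value of at least 3, −22.9 with the nearest gene only, −13.0 and −15.8 with clusters at 500 and 2000 bp, −11.9 to −11.8 in 1 replicate alone, and 11.2 with clusters and single genes as units, added after seeing the data. The host intron minus intergenic difference of 4.04 points was 7.49 with the nearest gene only and 3.86 to 6.58 in 1 replicate alone. The median position by gene, 14.5 bp, was 20 bp with a reach of 50 bp, 11.0 bp with an IDR value of at least 3, 19.5 bp with the nearest gene only and 21.5 to 25.5 bp in 1 replicate alone. The plus minus minus strand difference of 2.75 points was −1.05 with a reach of 50 bp, 7.08 with an IDR value of at least 3 and −0.65 to 5.17 in 1 replicate alone. The difference between genes with both boxes and the rest, −6.22 points, was −0.74 with a reach of 50 bp, −10.2 with 500 bp, −2.07 with the other list, 3.74 with an IDR value of at least 3, −0.64 with the nearest gene only, −0.36 to 0.82 in 1 replicate alone and 20.5 for the B box alone, which leaves 8 genes on 1 side. The repeated minus single-copy difference of 12.4 points was 14.8 to 20.1 in 1 replicate alone. The median signal over the strongest called summits of X tRNA genes, each summit counted once, was 1.25 times the median of all called peaks. It was 1.06 times with an IDR value of at least 3 and 1.08 to 1.1 times in 1 replicate alone. The causes of these changes were not tested.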
